A study of Mus musculus with 10 samples.

Results

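The DNA replication machinery of germinal center B cells was followed through 42 genes, from the origin recognition complex to the enzymes that supply deoxynucleotides. The members were chosen by symbol from a list of genes for origin licensing, the replisome and nucleotide supply, and each was matched to its identifier in the deposited count table. All 42 were found, with 1 row each and positions on mm10, among the 55421 genes of the table, and all 42 passed the filter on low counts that left 16596 genes for testing. The RNA came from spleens of C57BL/6 mice aged 8 to 10 weeks, taken 10 days after immunization and enriched for germinal center B cells with beads that bind peanut agglutinin. Total RNA was depleted of ribosomal RNA and sequenced in bulk. Genotype and cell fraction made 4 groups: WT CB and WT CC with 3 libraries each from Pbrm1+/+ mice, and HOMO CB and HOMO CC with 2 libraries each from Pbrm1-/- mice. Pbrm1 encodes a subunit of the PBAF chromatin remodeling complex. CB and CC are the labels' own letters and are left unexplained there. The labels do not say how the fractions were separated or how Pbrm1 was deleted, and give neither sex nor immunogen. The table's column names carry the letters AID, which the labels do not explain. WT libraries are numbered 1, 2 and 3 as in their titles. The HOMO columns are numbered 2 and 3 in the table but 1 and 2 in the titles, so they are used here as members of their group only, under the numbers of the table. Nothing in the labels says that libraries of a group came from separate animals, so the spread behind each p-value may in part be technical.

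Replication begins with licensing. The origin recognition complex, Cdc6 and Cdt1 load the ring-shaped MCM2-7 helicase on DNA before S phase. In S phase, Cdc45, the GINS complex and Mcm10 turn the loaded ring into an active helicase, polymerase alpha-primase lays down primers, and polymerases delta and epsilon extend them, held on DNA by the PCNA clamp. Germinal center B cells are among the fastest dividing cells of the body. They divide in the dark zone and are selected in the light zone, and many genes of the machinery are transcribed under E2F factors from late G1 into S phase.

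Promoter sequences show what many of these genes share beyond their role. RefSeq promoters on GRCm38.p6, 250 bases before to 50 bases after the start, were matched for 33 of the 42 members. Each was searched on both strands for 4 spellings of the E2F-type motif: TTTCCCGC, TTTGGCGC, TTTCGCGC and TTTGCCGC. The stretches shown here are from the 8 members with a match wholly upstream of the start, printed 5′ to 3′ on the strand of the gene, with the matched letters in capitals and up to 20 bases on each side.

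Upstream E2F-type matches in capitals:
Cdc6, chr11:98907993-98908040, plus strand: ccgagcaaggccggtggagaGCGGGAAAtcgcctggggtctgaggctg
Gins3, chr8:95633498-95633545, plus strand: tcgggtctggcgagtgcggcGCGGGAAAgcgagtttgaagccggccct
Mcm5, chr8:75109336-75109387, plus strand: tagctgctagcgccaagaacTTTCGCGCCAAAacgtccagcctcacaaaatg
Mcm6, chr1:128359725-128359835, minus strand: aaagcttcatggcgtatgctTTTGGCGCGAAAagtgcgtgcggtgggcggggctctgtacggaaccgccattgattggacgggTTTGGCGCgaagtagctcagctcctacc
Mcm7, chr5:138172021-138172068, minus strand: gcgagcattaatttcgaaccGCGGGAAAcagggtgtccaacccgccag
Orc1, chr4:108579407-108579453, plus strand: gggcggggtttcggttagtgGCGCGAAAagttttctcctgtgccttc
Pola1, chrX:93632266-93632313, minus strand: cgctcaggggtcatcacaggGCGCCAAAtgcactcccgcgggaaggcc
Rfc3, chr5:151651209-151651238, minus strand: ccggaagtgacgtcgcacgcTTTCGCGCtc

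In Mcm5 and Mcm6 matches on opposite strands overlap, so the run of capitals holds 2 matches, and Mcm6 has a further match closer to its start. A match was present in 15 of 33 member promoters (45.5%), against 704 of the 27025 genes in the promoter table (2.60%). The other members with a match, over or after the start, were Cdt1, Clspn, Lig1, Mcm3, Pold1, Pold3 and Pole2. Of 47 other replication genes, 41 had a matched promoter, 10 of them with an E2F-type match (24.4%). Of the 16 promoters matched for 20 mitosis genes, 1 had an E2F-type match. The reverse held for the CHR motif TTTGAA, an element known from mitosis genes, which was in 11 of those 16 promoters and in 5 of 33 member promoters (15.2%), against 20.2% of all genes. The CCAAT box, spelled CCAAT, was in 20 of 33 member promoters (60.6%) and in 41.1% of all genes. It was in 23 of the 41 other replication promoters (56.1%), where the CHR motif was in 8 (19.5%). Of the 16 mitosis promoters, 14 held a CCAAT box (87.5%). The CCAAT box was in 9 of the 10 matched promoters of members that were lower in CC of WT, and in 11 of the 23 others. The other motifs went the other way in this split. E2F-type matches were in 3 of the 10 and 12 of the 23, and the CHR motif in 0 and 5. The split was not tested. These are letter matches in a 300-base window and no measure of binding.

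Marker lists describe the fractions and the libraries. Summed CPM (read counts scaled to a common library size, with TMM scaling factors) of 4 dark zone genes was 1134 to 1504 in the CB libraries and 446 to 546 in CC, and that of 5 light zone genes was 353 to 417 in CB and 788 to 858 in CC. The 6 markers of germinal center B cells summed to 5577 to 6615 CPM in CB and 4335 to 4852 CPM in CC. Plasma cell markers summed to 647 to 840.1 CPM in CB and 293 to 515 CPM in CC, and follicular B cell markers to 445 to 575 CPM in CB and 932 to 1177 CPM in CC. The plasma cell sum does not stand for each gene. Of its 5 markers, 2 had a log2 change of CC against CB below 0 in WT, and the median was 0.29. These 3 sums moved with the fraction in the same libraries as the members, and their part in the results was not tested. Total counts ran from 9954006 to 67625110 per library. Pbrm1 itself was at 319, 309 and 312 CPM in CB of WT, with 178 and 164 CPM in CB of HOMO, and at 239, 239 and 250.3 CPM in CC of WT, with 152 and 150.4 CPM in CC of HOMO. It was lower in every HOMO library, by log2 changes of -0.88 (SE 0.09, adjusted p = 0.00954) in CB and -0.68 (SE 0.09, adjusted p = 0.0564, not called) in CC (edgeR). It was not at 0 in any library, and the part of the gene that was deleted is not given in the labels. Both libraries of WT number 3 stood apart from WT numbers 1 and 2. They deviated together from their group means (r = 0.436 over 8805 genes), and so did those of number 1 (0.301) and of number 2 (0.426). Across numbers 1 and 2, r was 0.278 for CB 1 with CC 2 and 0.163 for CB 2 with CC 1. The level relative to the mean of all libraries leaned differently on the G+C content of genes: Spearman's rho over 8802 genes was 0.15, 0.25 and -0.46 in the WT CB libraries, with -0.63 and -0.61 in their HOMO counterparts. In the CC fraction it was 0.43, 0.55 and 0.15 for WT, with -0.17 and -0.22 for HOMO. The 9 macrophage markers, none of them at 0 throughout, gave sums of 7.58 to 16.2 CPM in all CB libraries, of 607, 152 and 35.7 CPM in CC of WT and of 17.8 and 23.5 CPM in CC of HOMO. The 6 neutrophil genes reached 158 and 126 CPM in the HOMO libraries numbered 2 and at most 14.5 CPM elsewhere.

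All members were well expressed in every library. The lowest raw count of any member was 161 reads, and CPM ranged from 14.3 to 664. Per kilobase of the deposited gene length, which allows genes to be compared, the level of every one of the 42 members (median over 10 libraries) exceeded 3.71 CPM per kilobase, the median of all genes tested, and the median over members was 24.7. Pcna led with 142 CPM per kilobase (93.8 to 158). It was followed by Mcm6 at 112, Mcm5 at 106, Mcm3 at 100.2 and Mcm4 at 95.5 CPM per kilobase, and the ranges of these neighbours over libraries overlapped. Rrm2 (84.2), Lig1 (74.2) and Mcm7 (66.8 CPM per kilobase) came next. At the other end stood Tyms (7.23), Orc1 (6.82), Gins2 (6.44) and Dscc1 (3.93 CPM per kilobase). The order depends on the length used: by the longest protein-coding transcript, an alternative chosen after seeing the data, Pcna stayed at rank 1, Slbp moved from rank 14 to rank 5, and Mcm2 read 93.9 in place of 45.5 CPM per kilobase.

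**Figure D1:**
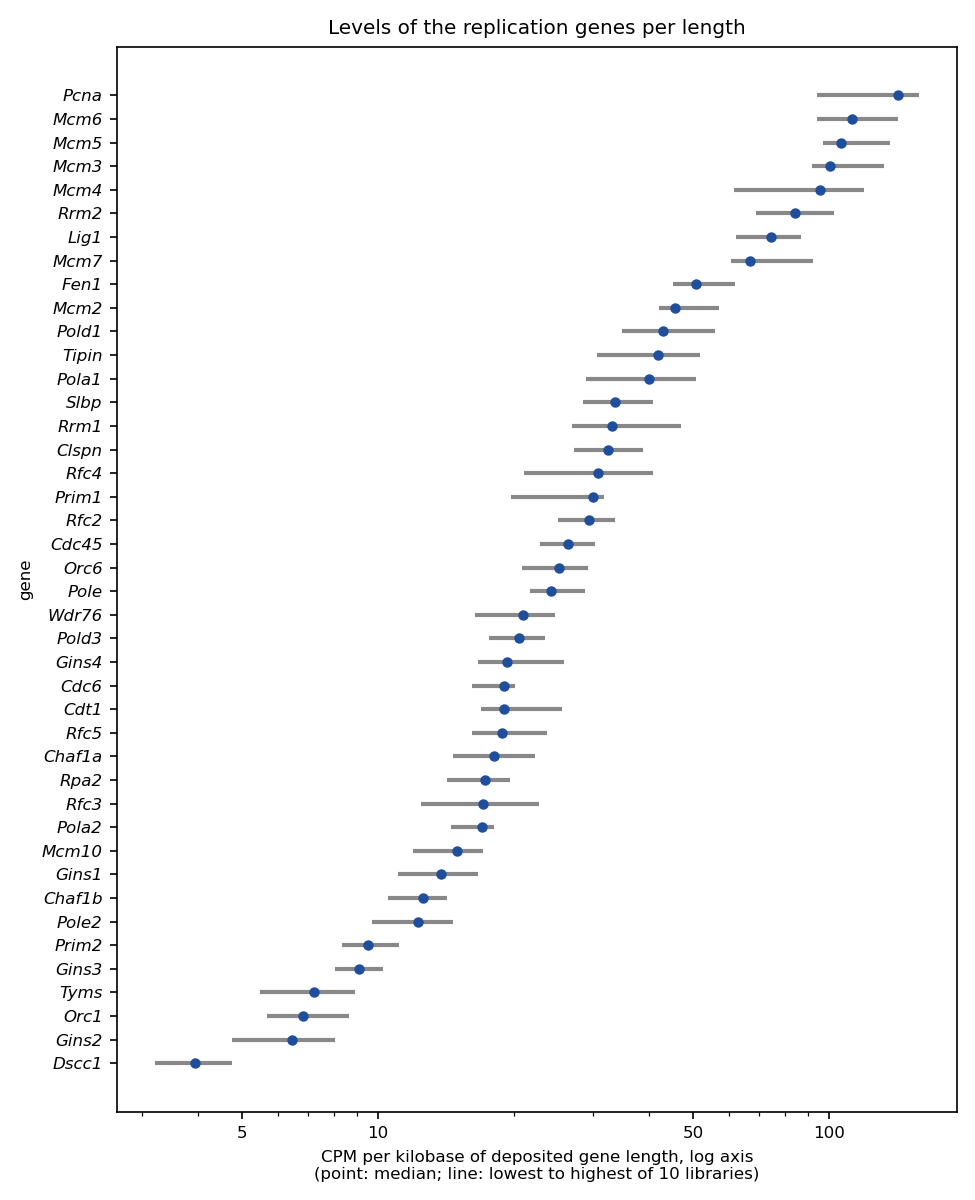
CPM per kilobase of deposited gene length for the 42 members on a log axis, with the median (point) and the lowest to highest of 10 libraries (line). Pcna and 4 MCM genes lead at 95.5 to 142 CPM per kilobase, and Dscc1 is the lowest at 3.93.

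In WT, 11 of the 42 members were lower in CC than in CB and none was higher at an adjusted p under 0.05 in edgeR's quasi-likelihood test with Benjamini-Hochberg adjustment over all genes. They were Mcm4 and Mcm6 of the helicase, Rfc3 and Rfc4 of the clamp loader with the clamp Pcna, Rrm1 and Rrm2 of ribonucleotide reductase, Prim1 and Pola1 of polymerase alpha-primase, Orc6 and Slbp. Of all genes tested, 12.3% were lower and 11.6% higher in CC. The changes were small: the median over the 42 members was -0.16 on the log2 scale (0.01 over all genes), with a range from -0.63 for Mcm4 to 0.30 for Tyms, and 32 of 42 values lay below 0. In HOMO the median was 0.00 and 21 of 42 values lay below 0, with 1 member called higher, Orc1, and none lower, against a background of 2.46% of genes higher and 2.98% lower. At an unadjusted p under 0.05 in edgeR, 14 of 42 members passed in WT, where 36.3% of all genes did, and 4 in HOMO, where 19.2% did. DESeq2 called 12 lower and 1 higher in WT, with 27.4% of all genes called. In HOMO it called Pola1 and Slbp lower and Orc1 and Tyms higher, with 10.0% of all genes called. In bulk RNA, fewer cells in S phase and less replication RNA per cell cannot be told apart. The test of the difference between genotypes called no member, as given with the genotype comparisons.

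**Figure D2:**
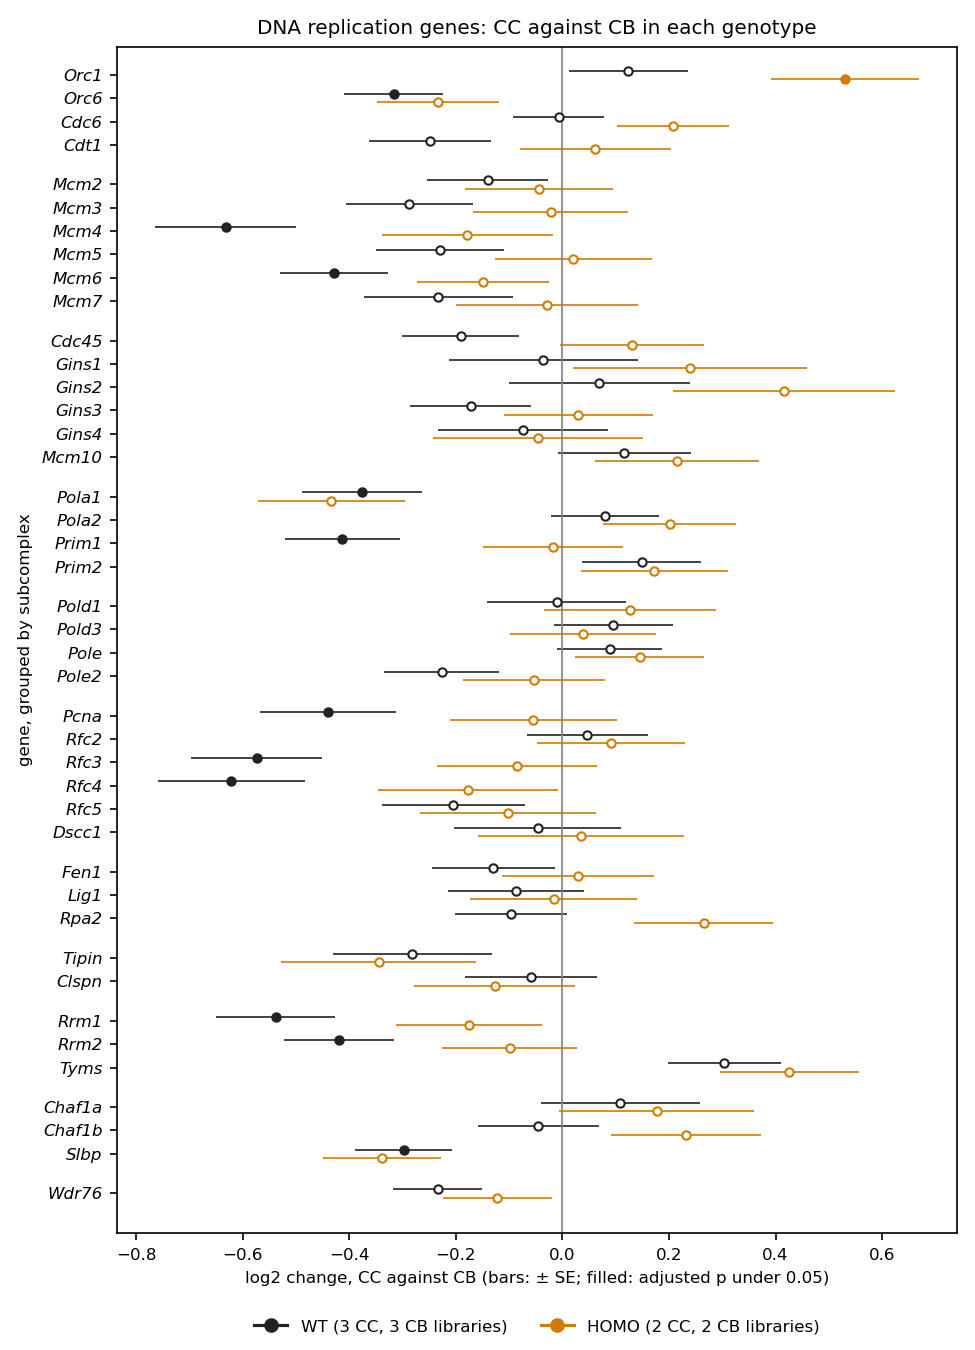
Fitted log2 change of CC against CB with its SE for each member, by subcomplex, in WT (black) and HOMO (orange); filled points have an adjusted p under 0.05. The 11 filled WT points lie between -0.63 and -0.30, and the filled HOMO point is Orc1 at 0.53.

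Among the 4 licensing genes, 1 was lower in WT CC and the median log2 change was -0.13. Orc6, the smallest subunit of the origin recognition complex (chr8:85299632-85308278), was at 70.9, 72.1 and 63.4 CPM in the CB libraries of WT and 60.5, 53.4 and 51.6 CPM in WT CC. In HOMO, Orc6 was at 71.7 and 71.2 CPM in CB and 60.8 and 60.6 CPM in CC. The groups did not overlap in either genotype, and the log2 change of CC against CB was -0.32 (SE 0.09, adjusted p = 0.0308) in WT and -0.23 (SE 0.11, adjusted p = 0.304) in HOMO. Cdt1, which brings the MCM ring to origins and is destroyed in S phase, was at 74.2, 80.4 and 60.2 CPM in the CB libraries of WT and 61.6, 63.4 and 55.7 CPM in WT CC. Libraries 1 and 2 of WT CB were the highest of all 10, WT CB 3 lay among the CC values, and the WT change of -0.25 (SE 0.11, adjusted p = 0.142) was not called. With the WT numbers as a fixed replicate block in edgeR, Cdt1 was called lower (adjusted p = 0.0265). Its HOMO values were 53.5 and 54.0 CPM in CB and 59.1 and 53.1 CPM in CC. Orc1, the ATPase subunit, went the other way. It was at 21.7, 21.8 and 25.1 CPM in the CB libraries of WT and 23.1, 27.5 and 24.4 CPM in WT CC. In HOMO, Orc1 was at 21.5 and 19.8 CPM in CB and 29.7 and 30.0 CPM in CC, where the 2 CC libraries were above all others. The change was 0.53 (SE 0.14, adjusted p = 0.0491) in HOMO and 0.12 (SE 0.11, adjusted p = 0.473) in WT. Orc1 is described here because it was the only member called in HOMO, a choice made after its values were seen. The call was lost in 9 of 21 alternatives, among them leaving out either library of either HOMO group (adjusted p = 0.228, 0.381, 0.243 and 0.254), WT CB 1 (0.0852), WT CB 2 (0.0666) or WT CC 1 (0.0501), no low-count filter (0.0785) and a random replicate block (0.063). Cdc6, the loading factor, had log2 changes of -0.01 in WT and 0.21 in HOMO, neither called.

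The 6 genes of the MCM2-7 ring reached together 2808, 2940 and 2183 CPM in WT CB, against 2116, 2154 and 2058 CPM in WT CC. In HOMO the sums were 2428 and 2295 CPM in CB and 2315 and 2178 CPM in CC. The 3 WT CC sums lay within a narrow range below every WT CB sum, whereas in HOMO the groups overlapped. Mcm4 (chr16:15623897-15637400) carried the largest fitted decrease of any member. It was at 417, 428 and 348 CPM in the CB libraries of WT and 221, 236 and 313 CPM in WT CC. In HOMO, Mcm4 was at 384 and 357 CPM in CB and 338 and 316 CPM in CC, without overlap. All WT CC values were below all WT CB values, with WT CC 3 closest, and the change was -0.63 (SE 0.13, adjusted p = 0.00649) in WT and -0.18 (SE 0.16, adjusted p = 0.630) in HOMO. Mcm6 (chr1:128331590-128359664), whose upstream E2F-type matches were shown with the promoters, was at 630.3, 664 and 514 CPM in the CB libraries of WT and 452, 439.7 and 452 CPM in WT CC. Its WT groups did not overlap, and it fell by 0.43 on the log2 scale (SE 0.10, adjusted p = 0.012) in WT. The HOMO values were 598 and 552 CPM in CB and 533 and 504 CPM in CC, also without overlap. The HOMO change was -0.15 (SE 0.12, adjusted p = 0.595). Mcm2 was at 383, 397 and 304 CPM in the CB libraries of WT and 339, 353 and 292 CPM in WT CC. WT CB 3 lay among the CC libraries, and the change was -0.14 (SE 0.11, adjusted p = 0.412). In HOMO, Mcm2 was at 323 and 304 CPM in CB and 310.0 and 298 CPM in CC, a change of -0.04 (SE 0.14, adjusted p = 0.923). Mcm3, Mcm5 and Mcm7 had WT values of -0.29, -0.23 and -0.23, none of them called. With the WT numbers as a fixed replicate block in edgeR, Mcm3 (adjusted p = 0.0237) and Mcm7 (0.0325) were called lower. Thus 2 of the 6 ring genes passed without the block, and the median over the 6 was -0.26. Mcm7 shares 12.6% of its exon bases with other genes, among them the miRNA genes inside it, and whether reads were counted by strand is not given in the sources used here.

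None of the 6 helicase activation genes was called in WT, and their median was -0.06 on the log2 scale. Cdc45, which joins the ring to form the active helicase, was at 103, 106 and 81.4 CPM in the CB libraries of WT and 80.2, 90.8 and 83.5 CPM in WT CC. The groups overlapped through WT CB 3, and the change was -0.19 (SE 0.11, adjusted p = 0.240). In HOMO, Cdc45 was at 94.7 and 87.5 CPM in CB and 101 and 98.2 CPM in CC, both CC values being above both CB values, a change of 0.13 (SE 0.14, adjusted p = 0.683). Gins3, a GINS subunit, was at 26.9, 27.8 and 23.0 CPM in the CB libraries of WT and 23.0, 21.7 and 24.0 CPM in WT CC. In HOMO, Gins3 was at 25.4 and 25.3 CPM in CB and 27.8 and 23.8 CPM in CC. Its values overlapped in both genotypes, with changes of -0.17 (SE 0.11, adjusted p = 0.307) and 0.03 (SE 0.14, adjusted p = 0.951). The other GINS genes and Mcm10 had WT changes between -0.07 (Gins4) and 0.12 (Mcm10). Gins2 shares 67.3% of its exon bases with Gse1 on the opposite strand, so its counts are uncertain.

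Within polymerase alpha-primase the 4 subunits split. Prim1, the catalytic primase subunit (chr10:128015168-128030037), was at 118, 121 and 96.1 CPM in the CB libraries of WT and 84.3, 76.2 and 91.1 CPM in WT CC. WT CC lay below WT CB in all libraries, with a change of -0.41 (SE 0.11, adjusted p = 0.018). In HOMO, Prim1 was at 123 and 115 CPM in CB and 118 and 117 CPM in CC, nearly level, with a change of -0.02 (SE 0.13, adjusted p = 0.969). Pola1, the catalytic polymerase subunit (chrX:93304767-93632155), was at 378, 349 and 373 CPM in the CB libraries of WT and 332, 260.2 and 255 CPM in WT CC. It fell by 0.38 on the log2 scale (SE 0.11, adjusted p = 0.0327) in WT, where the groups did not overlap. In HOMO, Pola1 was at 447 and 434 CPM in CB and 353 and 299 CPM in CC, also without overlap, and the change was -0.43 (SE 0.14, adjusted p = 0.0999), not called. The partner subunits had positive values in both genotypes, 0.15 and 0.17 for Prim2 and 0.08 and 0.20 for Pola2, none called. No member of the delta and epsilon polymerases was called in WT (median 0.04). Pole2, the second subunit of polymerase epsilon, was at 36.8, 34.4 and 36.0 CPM in the CB libraries of WT and 27.9, 31.9 and 31.8 CPM in WT CC. The WT groups did not overlap, and the change was -0.23 (SE 0.11, adjusted p = 0.156). In HOMO, Pole2 was at 42.4 and 37.6 CPM in CB and 34.9 and 42.3 CPM in CC, a change of -0.05 (SE 0.13, adjusted p = 0.895). Pole, the catalytic subunit, was at 283, 278 and 249.9 CPM in the CB libraries of WT and 285, 321 and 257 CPM in WT CC. In HOMO, Pole was at 252 and 243 CPM in CB and 285 and 262 CPM in CC. Its WT groups overlapped, with changes of 0.09 (SE 0.10, adjusted p = 0.567) in WT and 0.15 (SE 0.12, adjusted p = 0.595) in HOMO.

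The clamp and its loaders held 3 of the 11 called members, with a median of -0.32 over 6 genes. Pcna, the sliding clamp (chr2:132249162-132253314), was at 367, 379 and 334 CPM in the CB libraries of WT and 225, 243 and 329 CPM in WT CC. WT CC 1 and 2 were well below every CB library, while WT CC 3 lay just under WT CB 3. The fitted change was -0.44 (SE 0.13, adjusted p = 0.0288), and the libraries of WT number 3 on their own gave -0.02. In HOMO, Pcna was at 355 and 353 CPM in CB and 345 and 337 CPM in CC, also without overlap. The HOMO change was -0.05 (SE 0.16, adjusted p = 0.911). Rfc4, a small subunit of the clamp loader (chr16:23113943-23127737), was at 61.4, 62.5 and 44.2 CPM in the CB libraries of WT and 39.6, 32.4 and 37.1 CPM in WT CC. It fell by 0.62 on the log2 scale (SE 0.14, adjusted p = 0.00878) in WT, without overlap of the groups. Its HOMO values were 54.1 and 53.0 CPM in CB and 50.1 and 44.4 CPM in CC, also without overlap. The HOMO change was -0.18 (SE 0.17, adjusted p = 0.652). Rfc4 shares 12.7% of its exon bases with Eif4a2 on the opposite strand. Rfc3, another small subunit (chr5:151642756-151651242), was at 75.9, 82.1 and 62.3 CPM in the CB libraries of WT and 45.1, 50.4 and 52.4 CPM in WT CC, again without overlap, with a change of -0.57 (SE 0.12, adjusted p = 0.00719). In HOMO, Rfc3 was at 63.5 and 60.9 CPM in CB and 64.5 and 52.6 CPM in CC, where the groups overlapped, and the change was -0.09 (SE 0.15, adjusted p = 0.835). Rfc2, Rfc5 and Dscc1, a subunit of the alternative loader that serves sister chromatid cohesion, had WT values of 0.05, -0.20 and -0.05, none called.

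On the lagging strand, Fen1 trims the flap of each Okazaki fragment, Lig1 seals the nick, and Rpa2 is a subunit of the protein that covers single-stranded DNA. None of the 3 was called. Fen1 was at 144, 149.5 and 109 CPM in the CB libraries of WT and 123, 130.3 and 115 CPM in WT CC. In HOMO, Fen1 was at 123 and 120.1 CPM in CB and 123 and 125 CPM in CC. Its WT change was -0.13 (SE 0.12, adjusted p = 0.463), but 84.2% of its exon bases lie under Tmem258 and Gm10143 on the opposite strand, so reads of the genes may be mixed. Lig1 was at 346, 369 and 272 CPM in the CB libraries of WT and 332, 331 and 265 CPM in WT CC. In HOMO, Lig1 was at 309.5 and 306 CPM in CB and 324 and 284 CPM in CC. The groups overlapped, with changes of -0.09 (SE 0.13, adjusted p = 0.671) in WT and -0.02 (SE 0.16, adjusted p = 0.977) in HOMO. Rpa2 was at 57.2, 58.8 and 48.0 CPM in the CB libraries of WT and 53.8, 52.5 and 47.0 CPM in WT CC. In HOMO, Rpa2 was at 42.6 and 46.3 CPM in CB and 51.0 and 55.9 CPM in CC. HOMO CC was above HOMO CB without overlap, but neither 0.26 (SE 0.13, adjusted p = 0.304) in HOMO nor -0.10 (SE 0.11, adjusted p = 0.558) in WT was called. The mediators of fork protection and of the replication checkpoint gave no call either in the fit without a replicate block. Tipin, the partner of Timeless at the fork, was at 90.6, 96.9 and 70.0 CPM in the CB libraries of WT and 84.0, 70.0 and 57.2 CPM in WT CC. In HOMO, Tipin was at 92.9 and 86.0 CPM in CB and 72.0 and 68.8 CPM in CC. WT CC 1 reached the CB range, and the changes were -0.28 (SE 0.15, adjusted p = 0.200) and -0.34 (SE 0.18, adjusted p = 0.352). With the WT numbers as a fixed block in edgeR, Tipin was called lower in CC of WT (adjusted p = 0.0163) and of HOMO (0.0395). Clspn, the checkpoint mediator claspin, was at 257, 270.5 and 223 CPM in the CB libraries of WT and 279, 246 and 196 CPM in WT CC. In HOMO, Clspn was at 234 and 231 CPM in CB and 215 and 211 CPM in CC, with changes of -0.06 (SE 0.12, adjusted p = 0.777) and -0.13 (SE 0.15, adjusted p = 0.730).

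The 3 genes of deoxynucleotide supply divided by enzyme. Ribonucleotide reductase makes deoxynucleotides from ribonucleotides, and both of its S-phase subunits were lower in WT CC. Rrm1, the large subunit (chr7:102441695-102469771), was at 476, 518 and 377 CPM in the CB libraries of WT and 316, 297 and 332 CPM in WT CC. Every WT CC value was below every WT CB value, and the change was -0.54 (SE 0.11, adjusted p = 0.00638). In HOMO, Rrm1 was at 401 and 391 CPM in CB and 352 and 349 CPM in CC, also without overlap, a change of -0.18 (SE 0.14, adjusted p = 0.561) that was not called. Rrm2, the small subunit (chr12:24708241-24714146), was at 284, 283 and 219 CPM in the CB libraries of WT and 194, 204 and 191 CPM in WT CC. It fell by 0.42 on the log2 scale (SE 0.10, adjusted p = 0.0144) in WT, the groups being apart. Its HOMO values were 251 and 249 CPM in CB and 236 and 231 CPM in CC, also without overlap. The HOMO change was -0.10 (SE 0.13, adjusted p = 0.756). Tyms, thymidylate synthase, which makes the thymidine nucleotide from deoxyuridine, ran the other way. It was at 45.1, 42.8 and 36.4 CPM in the CB libraries of WT and 49.2, 54.2 and 49.9 CPM in WT CC. In HOMO, Tyms was at 33.3 and 34.8 CPM in CB and 48.6 and 42.9 CPM in CC. All CC values were above all CB values within each genotype, although neither change, 0.30 (SE 0.11, adjusted p = 0.058) in WT and 0.43 (SE 0.13, adjusted p = 0.0879) in HOMO, passed the threshold. DESeq2 called Tyms higher in CC in both genotypes. With a replicate block it was called higher in WT CC (adjusted p = 0.0184 fixed in edgeR and 0.0191 random in limma), and with the fixed block in HOMO CC too (0.0231).

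Behind the fork, the CAF-1 subunits Chaf1a and Chaf1b place new histones on DNA, and Slbp binds the stem-loop of histone mRNA. Slbp (chr5:33634952-33652574) was at 242, 248 and 211 CPM in the CB libraries of WT and 195, 196 and 178 CPM in WT CC. In HOMO, Slbp was at 233 and 215 CPM in CB and 180.5 and 173 CPM in CC. The CC values were below the CB values in both genotypes, and the sizes were alike, -0.30 (SE 0.09, adjusted p = 0.034) in WT and -0.34 (SE 0.11, adjusted p = 0.109) in HOMO, of which only the WT value was called. Chaf1a was at 177, 175 and 129.7 CPM in the CB libraries of WT and 198, 184 and 136 CPM in WT CC. In HOMO, Chaf1a was at 144 and 140.3 CPM in CB and 167 and 154 CPM in CC. The changes were 0.11 (SE 0.15, adjusted p = 0.651) and 0.18 (SE 0.18, adjusted p = 0.686), and 52.5% of its exon bases lie under Ubxn6 on the opposite strand. Chaf1b was at 66.7, 65.9 and 49.4 CPM in the CB libraries of WT and 59.0, 59.1 and 58.0 CPM in WT CC. In HOMO, Chaf1b was at 52.4 and 50.8 CPM in CB and 61.6 and 59.4 CPM in CC. Both HOMO CC values were above HOMO CB, with changes of -0.05 (SE 0.11, adjusted p = 0.819) in WT and 0.23 (SE 0.14, adjusted p = 0.424) in HOMO. Wdr76, a WD-repeat protein that stands outside the other classes, was at 135, 129.5 and 123 CPM in the CB libraries of WT and 109.8, 117 and 104 CPM in WT CC. In HOMO, Wdr76 was at 156 and 151 CPM in CB and 146 and 136 CPM in CC. CC was below CB without overlap in both genotypes, with changes of -0.23 (SE 0.08, adjusted p = 0.0651) and -0.12 (SE 0.10, adjusted p = 0.600), and it was not called. With the WT numbers as a replicate block it was called lower in WT CC (adjusted p = 0.0158 fixed in edgeR and 0.0239 random in limma).

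**Figure D3:**
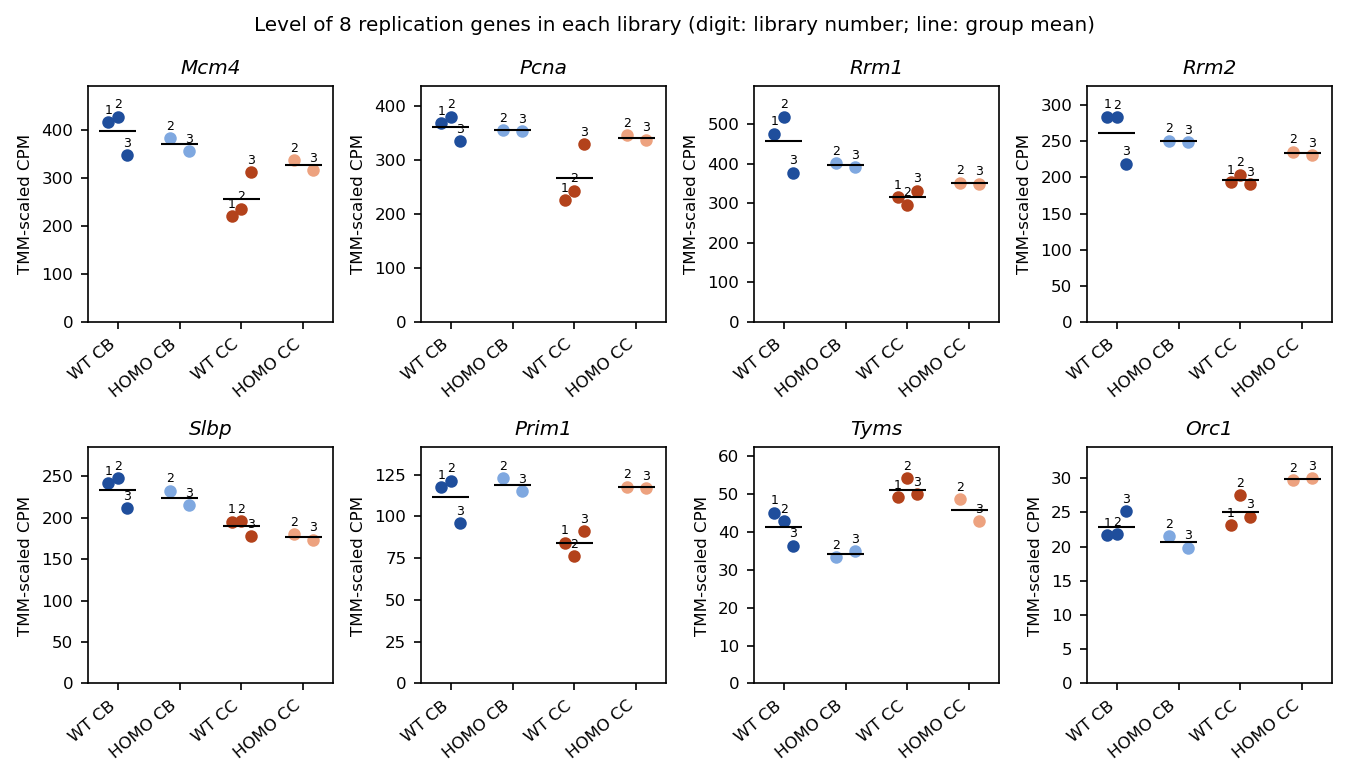
TMM-scaled CPM of 8 members in each of the 10 libraries (points, numbered by library, with the group mean as a line; axes start at 0). WT CC 3 stands at 313 CPM for Mcm4 and 329 CPM for Pcna, above WT CC 1 and 2, and the CC points of Tyms lie above its CB points within each genotype.

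The WT result leaned on particular libraries. Mcm4, Rfc3, Rfc4 and Rrm1 were called whichever of the 10 libraries was left out. Without WT CB 1, 4 members were called lower, against 6.75% of all genes, and Mcm6 (adjusted p = 0.0565), Orc6 (0.113), Pola1 (0.108), Prim1 (0.0771), Pcna (0.0895), Rrm2 (0.0726) and Slbp (0.126) no longer passed. Without WT CB 2, 5 were called lower, against 7.69% of all genes, and the calls of Orc6 (0.104), Pola1 (0.0526), Prim1 (0.0702), Pcna (0.0846), Rrm2 (0.0561) and Slbp (0.118) were lost. Leaving out WT CC 1 left 7 calls, against 8.28% of all genes lower, and ended those of Prim1 (0.0538), Pcna (0.114), Rrm2 (0.0508) and Slbp (0.0705). Leaving out WT CC 2 left 6, against 7.71% of all genes, and ended those of Orc6 (0.0984), Pola1 (0.125), Prim1 (0.0759), Pcna (0.112) and Slbp (0.0678). Pola1 (0.0737) and Slbp (0.0543) were lost without WT CC 3, and Orc6 (0.0503) and Slbp (0.0557) without HOMO CC 3. Without WT CB 3, 20 members were called lower, against 16.8% of all genes. The signs of the 11 stayed negative in all 21 alternatives. The model mattered as well. Fitted on the libraries of 1 genotype alone, edgeR called 5 members in WT, all lower, where 7.94% of all genes were lower. In HOMO it called 15, 10 higher and 5 lower, where 30.4% of all genes were called. With the WT numbers as a fixed replicate block it called 17 in WT, 16 of them lower, where 35.4% of all genes were called, and 6 in HOMO, 3 lower and 3 higher, where 13.8% were called. As a random block in limma the numbers gave 13 calls in WT and 0 in HOMO, against 33.6% and 4.99% of all genes. The fixed block added Mcm3 (-0.27, adjusted p = 0.0237), Mcm7 (-0.22, 0.0325), Cdt1 (-0.24, 0.0265) and Tipin (-0.29, 0.0163) to the members lower in WT CC. Both blocks added Wdr76 as lower (adjusted p = 0.0158 fixed in edgeR and 0.0239 random in limma) and Tyms as higher (0.0184 and 0.0191). In HOMO the fixed block called Pola1 (adjusted p = 0.0171), Slbp (0.0134) and Tipin (0.0395) lower and Gins2 (0.0363), Orc1 (0.0145) and Tyms (0.0231) higher.

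Read number by number, the median log2 ratio of CC to CB over the members was -0.18 in WT number 1, -0.18 in number 2 and -0.04 in number 3. In the same order, 30, 32 and 26 of the 42 ratios lay below 0. Mcm4 gave -0.92, -0.86 and -0.15, Rrm1 gave -0.59, -0.81 and -0.18, and Slbp gave -0.31, -0.34 and -0.25 in the same order. Without both libraries of WT number 3, 21 of 42 members were called lower in WT CC, against 23.9% of all genes. The added ones included Mcm2, Mcm3, Mcm5, Mcm7, Cdc45 and Cdt1. With number 3 alone for WT, each WT group is 1 library that is assumed to vary like the HOMO groups. In that fit 7 members were lower, against 8.30% of all genes, among them Rrm1, Rrm2, Orc6, Pola1 and Slbp. The calls of Mcm4 (-0.18, adjusted p = 0.143), Mcm6 (-0.21, 0.074), Rfc3 (-0.27, 0.174), Rfc4 (-0.27, 0.128), Pcna (-0.05, 0.733) and Prim1 (-0.10, 0.506) were lost. Macrophage markers moved with part of this contrast, at 607 and 152 CPM in WT CC 1 and 2 and 35.7 CPM in WT CC 3. Without WT CC 1 and 2 no member was called in edgeR's test and 2.52% of all genes were lower in CC. The lone WT CC library is then assumed to vary like the other groups, the median over the members was -0.30, and the 11 changes ran from -0.58 to -0.13. The G+C content of transcripts moved with it as well. The 11 members lower in WT CC had 41.5% to 47.3% G+C (median 44.4%), and the other 31 had 40.6% to 61.0% (median 49.3%). With an offset for G+C content, 9 members were called lower, against 12.4% of all genes, and 7 of the 9 were among the 11. Orc6 (-0.24, adjusted p = 0.115), Pola1 (-0.23, 0.216), Prim1 (-0.32, 0.0679) and Slbp (-0.20, 0.207) were not called, and the median over the members was -0.17. The part of macrophage RNA in the result was not tested.

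The other genes of the pathway were 47 genes in 3 lists, for origin firing, the fork, and nucleotides with chromatin. At an adjusted p under 0.05 in edgeR, 15 of 47 were called lower in WT CC and 3 higher. Of all genes, 12.3% were lower and 11.6% higher. The median of the 47 was -0.26, and 35 of 47 values lay below 0. In HOMO CC 6 of the 47 were called lower and 1 higher, against 2.98% and 2.46% of all genes. The HOMO median was -0.10, with 33 of 47 values below 0. Nucleotide enzymes held both the lowest and the highest value. Rrm2b, the p53-inducible small subunit of ribonucleotide reductase, had log2 changes of -1.40 in WT (SE 0.09, adjusted p = 1.33e-05) and -1.32 in HOMO. Dck, deoxycytidine kinase, had -1.30 and -0.96. Dctd, deoxycytidylate deaminase, was higher by 1.67 and 1.35. Tk1, thymidine kinase, was higher by 0.44 in WT. Among the fork genes, Pclaf, a PCNA-binding protein, had -0.50, Rpa3, a subunit of the single-strand binding protein, had -0.81 and Rfc1, the large clamp loader subunit, had -0.34 in WT. Among the firing genes Dbf4, the activator of Cdc7 kinase, had -0.69 and Mcmbp -0.32, and the helicase Recql4 had 0.40.

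Mitosis genes gave a scale for the members. All 20 were called lower in WT CC and 18 of 20 in HOMO CC, against 12.3% and 2.98% of all genes. The medians of the list were -1.09 and -0.87. In both genotypes all 20 values lay below 0. Cenpf, a kinetochore protein, had a log2 change of -1.23, Ccna2, cyclin A2, had -1.14 and Nusap1, a spindle protein, had -1.11 in WT. By WT number the medians of the list were -1.15, -1.31 and -0.79, with all 20 log2 ratios below 0 each time. Thus the median decrease of the replication members was smaller than that of the mitosis list in each WT number. The difference between the lists was not tested.

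**Figure D4:**
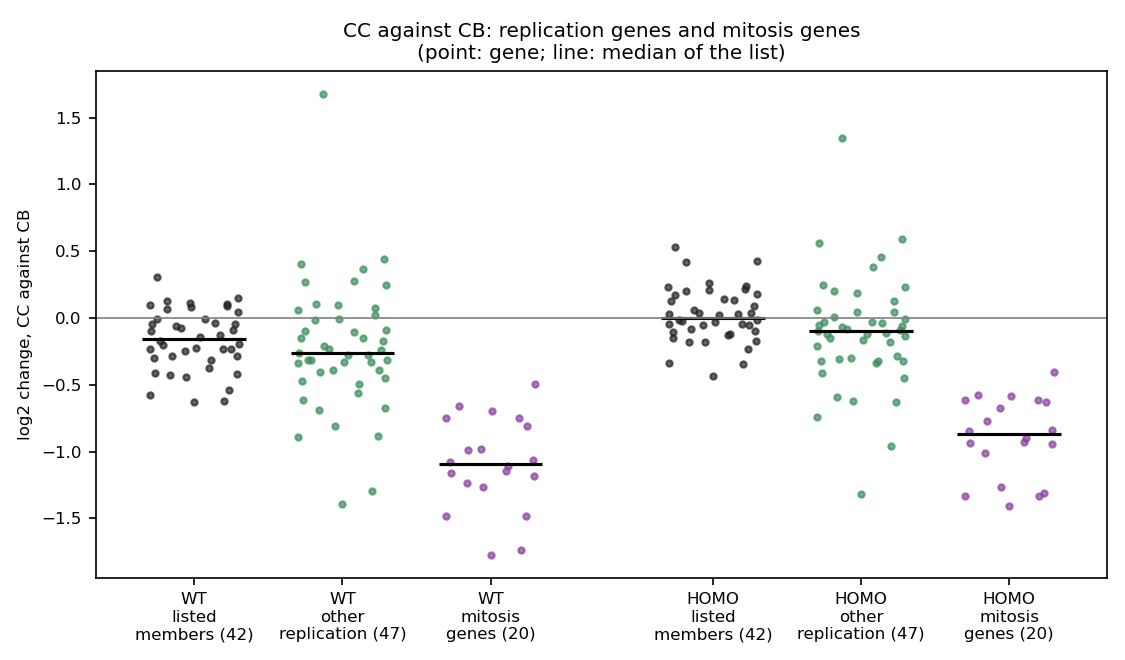
Log2 change of CC against CB for the 42 members, 47 other replication genes and 20 mitosis genes in WT and HOMO (points are genes, lines are list medians). The medians are -0.16, -0.26 and -1.09 in WT and 0.00, -0.10 and -0.87 in HOMO.

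Between genotypes, no member was called in either fraction by edgeR, where 0.0241% of all genes were called in CB and 0% in CC. In CB, 5 of 42 members had an unadjusted p under 0.05, against 12.5% of all genes, and DESeq2 called 0. The median log2 difference of HOMO minus WT was -0.12 (-0.04 over all genes) and 34 of 42 values lay below 0. In CC, 6 had an unadjusted p under 0.05, against 18.9% of all genes. DESeq2 called 2 higher in HOMO, Prim1 and Wdr76, against 2.16% of all genes, and the median was 0.05 (-0.03 over all genes). A p that misses the threshold does not show that the genotypes were alike. The smallest p-value in CB belonged to Cdt1, whose HOMO CB values of 53.5 and 54.0 CPM were below all WT CB values, with a log2 difference of -0.41 (SE 0.13, adjusted p = 0.289). Pold1, the catalytic subunit of polymerase delta, was next. It was at 246, 271 and 193 CPM in the CB libraries of WT and 221, 268 and 215 CPM in WT CC. In HOMO, Pold1 was at 180.3 and 169 CPM in CB and 201 and 179.9 CPM in CC. HOMO lay below WT in both fractions, and the difference was -0.44 (SE 0.15, adjusted p = 0.311) in CB. Wdr76 lay above WT in both, by 0.24 (SE 0.09, adjusted p = 0.345) in CB and 0.36 (SE 0.09, adjusted p = 0.133) in CC. In CC, Prim1 had the smallest p: its HOMO values lay above all 3 WT values, by 0.49 (SE 0.12, adjusted p = 0.123). Pole2 had the third smallest p after Prim1 and Wdr76, with a difference of 0.34 (SE 0.12, adjusted p = 0.189).

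The test of whether the CC-to-CB change differed between genotypes, the interaction, called no member and 0% of all genes in edgeR, and DESeq2 called 0 members. Its median over members was 0.17 and 37 of 42 values lay above 0, 3 of them with an unadjusted p under 0.05, against 2.62% of all genes. These were Rfc3 at 0.49 (SE 0.19, adjusted p = 1), Prim1 at 0.39 (SE 0.17) and Orc1 at 0.41 (SE 0.18). The contrast uses the same libraries as the 4 group comparisons, so the values are not separate support. The 11 members lower in WT and the absence of lower calls in HOMO therefore do not show a difference between the genotypes.

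The genotype counts moved with WT number 3. Its CB library summed to 6450 CPM over the 42 members, against 7899 and 8182 CPM in WT CB 1 and 2 and 7115 and 6826 CPM in HOMO CB. The sums in CC were 6557, 6570 and 6087 CPM in WT and 6915 and 6540.5 CPM in HOMO. Without both libraries of WT number 3, 19 of 42 members were called lower in HOMO CB, against 15.1% of all genes, and 1, Wdr76, was called higher. In CC, 11 members were called higher, against 16.5% of all genes, and 3 lower. The interaction was above 0 for 15 called members, against 5.04% of all genes. Leaving out WT CB 3 alone gave 9 members called lower in HOMO CB, against 5.64% of all genes, and 1 called higher in HOMO CC, against 0.409%. Leaving out WT CC 3 alone gave 4 members called higher in HOMO CC, against 7.45% of all genes. With number 3 as the only WT number, where each WT group is 1 library assumed to vary like the HOMO groups, the CB median turned to 0.10. Prim1, Tipin and Wdr76 were called higher in HOMO CB in that fit, against 2.05% of all genes. Over the 42 members the difference of HOMO and WT also went with G+C content, with Spearman's rho of -0.59 in CB and -0.49 in CC. These points share the same 10 libraries and are given as a description.

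**Figure D5:**
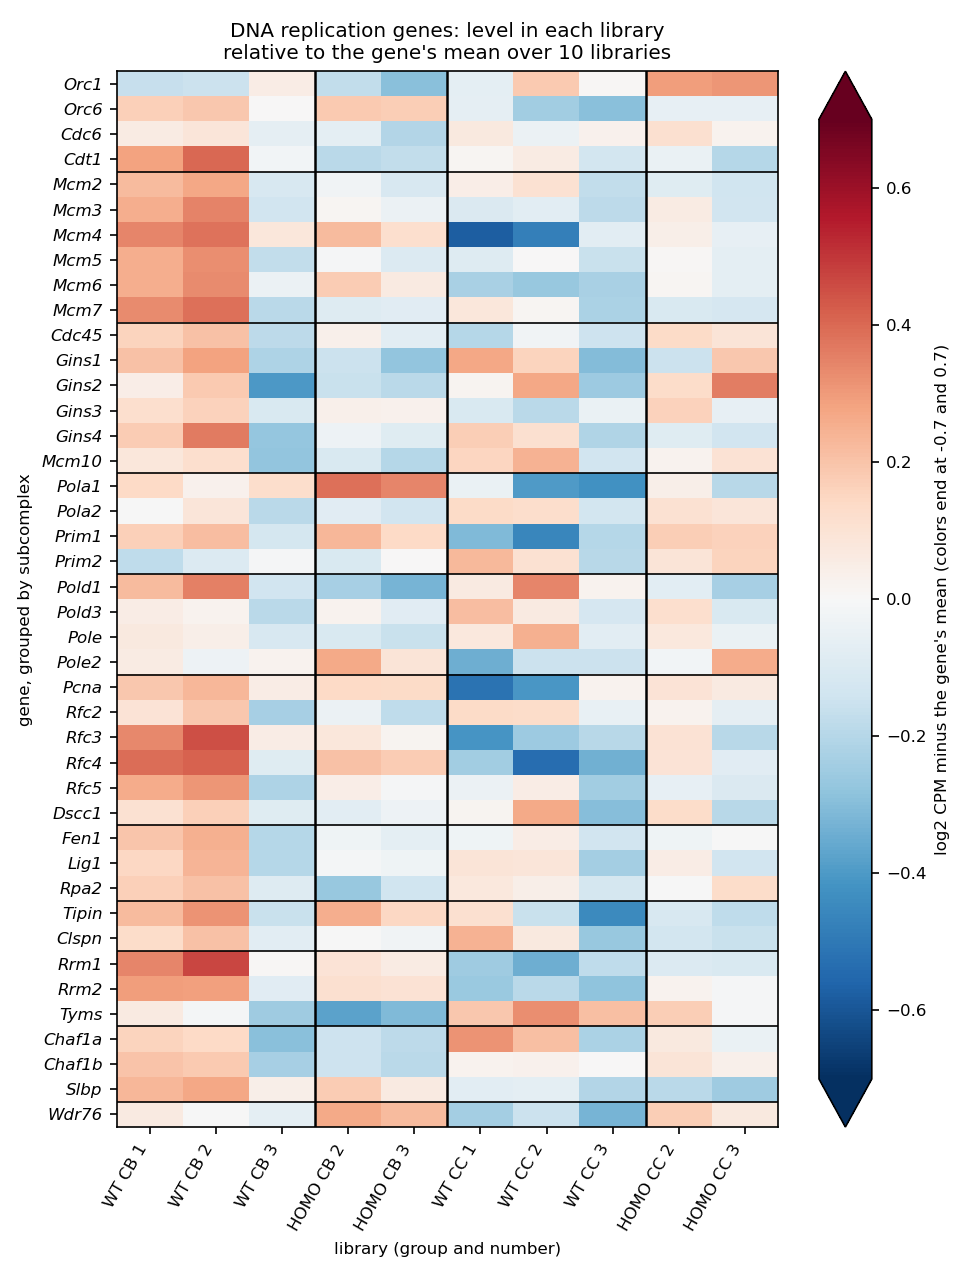
Log2 CPM of each member minus its mean over the 10 libraries, by subcomplex (rows) and group (columns), from blue (lower) to red (higher). WT CB 1 and 2 are red for most members and WT CB 3 is paler or blue, and Mcm4, Pcna and Rfc4 show the deepest blue in WT CC 1 or 2.

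Across the 10 libraries the members did not move as a single block. Pearson's r of a member's log2 CPM with the mean of the other members was highest for Mcm5 (0.97), Mcm3 (0.96), Rfc5 (0.94) and Fen1 (0.93). It was lowest for Orc1 (-0.30), Prim2 (-0.21) and Tyms (-0.05). The ratio of the highest to the lowest library ran from 1.25 to 1.94, with Mcm4 the widest. These correlations share their libraries and depth, and are given as a description over 10 libraries that form 4 groups.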

How the data were processed

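Per the submitters' processing notes, reads were handled with FastQC, STAR, Subread, featureCounts and R 4.2.1 on the mm10 genome. The strand setting of the counting is not given in the sources used here. The values are read counts per gene as deposited by the authors, whole numbers and not normalized. The deposited length equals the union of the exons listed in the same count table for 42 of 42 members. The annotation release is not given in the sources used here. The identifiers of 54587 genes were found with their version in GENCODE M21, with the same chromosome, start and end. Symbols of 567 genes were matched without the version, and 267 identifiers were not matched.

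From the counts, edgeR 4.0.16 (R 4.3.3) computed TMM-scaled CPM and a robust quasi-likelihood F-test in 1 fit of all 10 libraries with 4 group means. The filterByExpr minimum was 10 counts, with a total of 15. Benjamini-Hochberg adjustment ran over the 16596 genes tested, and adjusted p under 0.05 was called. The biological coefficient of variation was 23.1%. The workflow was run on simulated counts with planted changes, but without the G+C trends or the differences between WT numbers seen here. That run cannot show how the fit deals with them. Libraries of a group differed beyond counting noise (chi-square per degree of freedom 4.14 to 80.7), so none was merged. WT libraries with the same number deviated together (r of 0.301, 0.426 and 0.436). The numbers were therefore taken as pairs in the replicate blocks and the ratios by WT number, from the data and not from the labels. The main fit used no pairing. CB 1 went with CC 2 (r = 0.278) about as much as with CC 1, and CB 2 with CC 1 gave 0.163. Between number 3 and the others r was -0.411 to -0.244. Deviations from a group mean cancel out within the group, so these negative values follow in part from the positive ones. The pairing of number 3 thus rests on its positive r, and that of numbers 1 and 2 is less certain. Alternatives used DESeq2 1.42.0, limma 3.58.1, other scaling and filters, an offset for G+C content, a replicate block and left-out libraries.

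Values in every library are given for the 2 members of each subcomplex with the smallest p in WT (all where a subcomplex has 3 or fewer), for Pcna, Mcm2, Rrm2 and Slbp, and for the 3 members with the smallest p between genotypes in each fraction. From the other lists, up to 3 genes per list and direction were named by smallest p, and 1 gene that the rule names is not reported here. The members, gene lists and tests were chosen with earlier results of these data known. T cell markers summed to 0.552 to 9.48 CPM.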

Additional observations from a re-analysis of the deposited data

How the results depend on the processing

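In WT, 11 members were called between CC and CB. The count was 5 with only the groups compared (15.6% of all genes called, against 23.9%). It was 17 with the fixed replicate block (16 lower, 1 higher, 35.4% of all genes) and 13 with the random replicate block (33.6%). Without both libraries of WT number 3 it was 23 (21 lower, 2 higher), where 46% of all genes were called. Without WT CC libraries 1 and 2, which leaves 1 WT CC library, the median of -0.16 became -0.30. The count ran from 4 to 20 when single WT libraries were left out, where 12.7% to 32.5% of all genes were called. In HOMO, where 1 member and 5.45% of all genes were called, the count was 2 with upper-quartile scaling (6.04% of all genes called). It was 4 with DESeq2 (10%) and 2 with a minimum count of 50 (9.07%). With only the groups compared it was 15 (30.4%). It was 0 with the random (4.99%) and 6 with the fixed replicate block (13.8%). Without both libraries of WT number 3 it was 12 (23.0%). With single WT libraries left out it was 0 to 3 (3.93% to 9.7%). Without WT numbers 1 and 2 the HOMO median was 0.02 in place of 0.00. Between genotypes, 0 members were called. In CB the count was 1 with no low-count filter (2.02% of all genes called) and 20 without WT number 3 (30.4%). It was 0 to 9 with single WT libraries left out (0% to 12.1%). Without WT numbers 1 and 2, which leaves 1 library per WT group, the CB median was 0.10 in place of -0.12. In CC the count was 2 with DESeq2 (4.92% of all genes called), 1 with no low-count filter (4.49%) and 14 without WT number 3 (31.3%). It was 0 to 4 with single WT libraries left out (0% to 14.8%). Without WT numbers 1 and 2 the CC median was 0.19 in place of 0.05. For the interaction the count was 15 without WT number 3 (8.98% of all genes). The other alternatives stayed within 1.5 times the count, apart from fits that left 1 library in a WT or HOMO group. Counts of those fits are not given in this section. The replicate block was run on WT pairs only, since the HOMO columns carry no number that matches their titles. Of 90 single-gene results 12 were called, and their 252 alternatives kept the call in 186 cases, lost it in 66 and reversed it in 0. The uncalled results had 1632 alternatives, of which 1409 stayed uncalled with the same sign, 117 gained a call and 106 changed sign without one. The cause of these changes was not tested. Fits with libraries left out also had fewer libraries.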
